A study of Mus musculus with 12 samples.

Results

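The pentose phosphate pathway enzymes Pgd, H6pd, Tkt and Taldo1 were followed in perigonadal fat of mice that gained or lost the glucose transporter Glut4 in adipose tissue. All probe sets whose platform annotation names 1 of these 4 genes and no other were taken, which gave 5 of 12422 probe sets on the array. Pgd had 2 probe sets and the other genes 1 each. Of the 5 probe sets, 4 (1 per gene) were bright enough to be tested, and the second Pgd probe set was too dim.

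The study profiled 12 mice labelled female, 6 months old and fed ad libitum, each on its own Affymetrix array of total RNA. The overexpressor group (adipose-GLUT4-Tg) held 3 FVB mice in which the aP2 promoter drives a Glut4 transgene, and its controls were 3 FVB littermates. The knockout group (adipose-Glut4-/-) held 3 mice and was set against 3 aP2-Cre transgenic mice, all 6 of strain C57B6/FVB/SV129 mix. The aP2 promoter, that of the fatty acid binding protein gene Fabp4, drives both the transgene and Cre; as background, it is known to be active in fat cells and also in macrophages. The labels do not state the deleted part of the gene or the species of the transgene.

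The pathway branches from glycolysis at glucose-6-phosphate. Its oxidative branch makes NADPH, which fat cells spend on fatty acid synthesis and on keeping glutathione reduced, and its non-oxidative branch exchanges sugar phosphates with glycolysis and supplies ribose for nucleotides. Pgd, 6-phosphogluconate dehydrogenase, makes NADPH in the cytosol. H6pd belongs to the oxidative branch inside the endoplasmic reticulum, where its NADPH serves the glucocorticoid-activating enzyme Hsd11b1. Tkt, transketolase, and Taldo1, transaldolase, are the carbon-shuffling enzymes of the non-oxidative branch.

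Because Tkt, Pgd and Taldo1 varied together between arrays and H6pd passed no test of varying with them, the 250 bases before a RefSeq start site of each gene are printed (build GRCm38.p6, read 5′ to 3′ on the gene's strand, capitals marking motif matches on either strand). The Tkt stretch lies at chr14:30548881-30549130 on the plus strand, Pgd at chr4:149166706-149166955 on the minus strand, Taldo1 at chr7:141391910-141392159 on the plus strand and H6pd at chr4:150003237-150003486 on the minus strand. The H6pd start used here lies 5787 bases inside the gene's annotated span, while those of Tkt, Pgd and Taldo1 lie at the edge of theirs. The H6pd window is therefore not like for like with the others.
Tkt: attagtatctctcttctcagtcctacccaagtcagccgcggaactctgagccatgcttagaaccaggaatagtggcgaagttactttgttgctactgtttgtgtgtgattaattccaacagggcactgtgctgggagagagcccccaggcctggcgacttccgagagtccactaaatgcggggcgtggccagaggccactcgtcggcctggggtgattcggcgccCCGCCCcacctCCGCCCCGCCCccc
Pgd: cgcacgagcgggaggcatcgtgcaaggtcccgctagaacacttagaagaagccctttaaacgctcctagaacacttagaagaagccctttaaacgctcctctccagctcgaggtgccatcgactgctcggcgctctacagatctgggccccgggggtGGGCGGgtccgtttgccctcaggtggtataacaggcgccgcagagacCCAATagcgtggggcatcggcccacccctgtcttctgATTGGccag
Taldo1: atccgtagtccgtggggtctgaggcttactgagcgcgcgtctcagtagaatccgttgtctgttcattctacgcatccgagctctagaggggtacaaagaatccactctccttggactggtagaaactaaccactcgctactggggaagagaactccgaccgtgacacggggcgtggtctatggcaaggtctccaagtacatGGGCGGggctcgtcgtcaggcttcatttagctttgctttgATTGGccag
H6pd: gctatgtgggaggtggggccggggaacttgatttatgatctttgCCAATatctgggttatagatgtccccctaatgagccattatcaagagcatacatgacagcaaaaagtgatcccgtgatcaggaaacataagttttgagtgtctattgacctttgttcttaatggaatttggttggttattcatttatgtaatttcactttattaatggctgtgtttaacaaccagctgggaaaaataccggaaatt
The GC box GGGCGG occurred 3 times before Tkt (the last 2 matches overlapping by a base), and once each before Pgd and Taldo1, and it was found in 32.7% of 32851 promoter windows of this length. The CCAAT box CCAAT occurred 2 times before Pgd and once each before Taldo1 and H6pd, and was found in 33.8% of windows. No match to the E-box CACGTG (6.02% of windows), the antioxidant response element core TGACNNNGC (10.2%), the sterol response element TCACNCCAC (1.05%) or the TATA box TATAAA (12.4%) lay in the 4 windows, nor did any of these motifs match the window of a second Pgd start that lies 623 bases inside the gene. The Pgd and Taldo1 windows end in the same 11 bases, tgattggccag, which hold a CCAAT box. This was noticed after the sequences were printed. Of the 32851 windows 2 end so, and they are these same 2, from which the ending was taken. How often any 2 windows share an ending of this length was not counted. A match is a description of letters and not a binding site. Whether these sequences bear on how the genes varied between arrays was not tested.

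Values are deposited probe set intensities on a linear scale, given as mean ± SD (n = 3 arrays). Changes are differences of log2(intensity + 36.92) from a limma fit of all 12 arrays, with the p adjusted by Benjamini-Hochberg over 7454 tested probe sets and called under 0.05. The smallest deposited intensity was 21.9 in the overexpressor line (6 arrays) and 22.27 in the knockout line (6 arrays), so no level was compared between lines. Array medians ran from 185.8 to 219.4, lowest on knockout control 3 and overexpressor 1; precision is limited by how few arrays there are. The brighter Slc2a4 (Glut4) probe set read 624.6, 1110 and 1042 in overexpressors and 639.0, 582.7 and 1212 in their controls (log2 change 0.22, 95% interval -0.35 to 0.78). It read 377.5, 365.4 and 363.4 in knockouts, each below the 416.1, 513.5 and 614.2 of their controls, as for 1.93% of tested probe sets. The log2 change in the knockout was -0.43 (95% interval -0.99 to 0.14). Neither change was called, and whether the Slc2a4 probes read the transgene or the deleted part was not tested. Of 7 adipocyte markers 5 were named by a probe set, and their summed intensity was 14342 to 19876 over all 12 arrays. In tissue RNA, fewer cells of a type and less RNA per cell cannot be told apart.

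**Figure D1:**
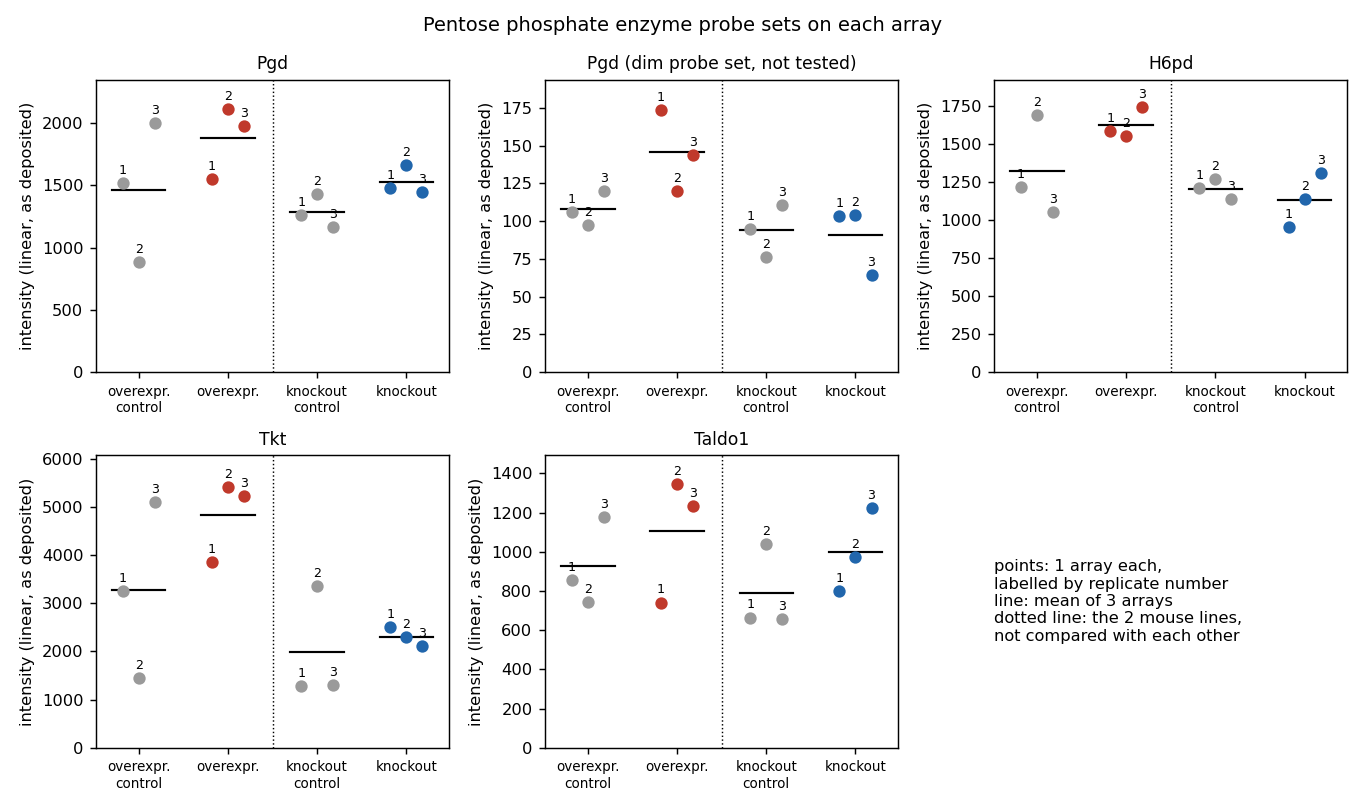
Deposited intensity (linear axis from 0) of each Pgd, H6pd, Tkt and Taldo1 probe set, 1 point per array labelled by replicate number, with a line at the mean of 3 arrays. Tkt spans 1454 to 5098 among the overexpressor controls and 3849 to 5412 among the overexpressors, so the groups overlap.

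The first comparison asked whether extra Glut4 in fat went with more mRNA of these enzymes. All 4 genes had a higher mean in the overexpressors, by 0.23 to 0.71 on the log2 scale, but 0 of 4 passed limma's test and 0 had an unadjusted p under 0.05. Over all 7454 probe sets the same test called 6 (0.0805%), 355 (4.76%) had an unadjusted p under 0.05, and 29.7% had a change above 0, with a median of -0.07. No member's 2 groups lay apart: in each gene at least 1 control array reached into the range of the overexpressors.

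In the oxidative branch, the bright Pgd probe set read 1548, 2115 and 1976 in overexpressors against 1520, 882.0 and 1998 in controls. Overexpressor control 2 was the low array, while control 3 was as high as the overexpressors. The means were 1880 ± 295 and 1467 ± 560, a log2 change of 0.41 (SE 0.23, 95% interval -0.09 to 0.92, limma adjusted p = 0.916). The change was 0.094 without overexpressor control 2 and 0.67 without overexpressor control 3. The dim Pgd probe set read 173.9, 119.8 and 143.7 against 106.1, 97.28 and 119.9, the groups meeting at overexpressor 2 and control 3. Without a filter on dim probe sets its change was 0.33 (95% interval -0.03 to 0.69, limma adjusted p = 0.951), also without a call.

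H6pd, the oxidative enzyme of the endoplasmic reticulum, read 1586, 1551 and 1740 in overexpressors against 1217, 1688 and 1053 in controls. Here control 2 was the high control, the array on which Pgd was lowest. The means were 1626 ± 100.4 and 1320 ± 329, a log2 change of 0.32 (SE 0.17, 95% interval -0.04 to 0.68, limma adjusted p = 0.916). It was 0.51 without overexpressor control 2 and 0.17 without overexpressor control 3. Hsd11b1, the enzyme that H6pd serves, rose in the same fat from between 385.1 and 957 in controls to between 1718 and 2646 (log2 change 1.71, limma adjusted p = 0.0213). All 3 overexpressors lay above all 3 controls, as they did for 2.29% of tested probe sets. The Hsd11b1 call was lost with dim probe sets kept (adjusted p = 0.0973), on the line's own 6 arrays (0.278), and without overexpressor 2 (adjusted p = 0.123), overexpressor 3 (0.126) or overexpressor control 2 (0.0867).

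In the non-oxidative branch, Tkt had the largest point estimate of the 4 genes and the widest spread. It read 3849, 5412 and 5229 in overexpressors against 3259, 1454 and 5098 in controls. Control 2 was again low and control 3 again lay with the overexpressors, above overexpressor 1. The means were 4830 ± 854 and 3270 ± 1822, a log2 change of 0.71 or 1.64-fold (SE 0.41, 95% interval -0.18 to 1.61, limma adjusted p = 0.916). Without overexpressor control 2 the change was 0.23, and without overexpressor control 3 it was 1.12 (adjusted p = 0.312).

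Taldo1 read 740.8, 1346 and 1235 in overexpressors against 856.1, 743.5 and 1178 in controls. The lowest of the 6 arrays was overexpressor 1, which is also the array of that group with the lowest median intensity. The means were 1107 ± 322 and 926 ± 226, a log2 change of 0.23 (SE 0.255, 95% interval -0.32 to 0.78, limma adjusted p = 0.928). It was 0.49 without overexpressor 1, 0.41 without overexpressor control 3, 0.13 without overexpressor 3, 0.092 without overexpressor control 2 and 0.072 without overexpressor 2.

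With limma's array weights, whose iteration did not converge, 3 of the 4 genes were called higher in the overexpressors: Tkt at 1.54 (limma adjusted p = 0.0162), Pgd at 0.98 (0.0106) and Taldo1 at 0.64 (0.0352), while H6pd was at 0.05. The largest of the 12 weights, 4.60, fell on overexpressor control 2, the array with the lowest Tkt and Pgd of that line, and overexpressor 1 had 0.329, the smallest. With these weights 411 probe sets were called in that comparison, against 6 without them.

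**Figure D2:**
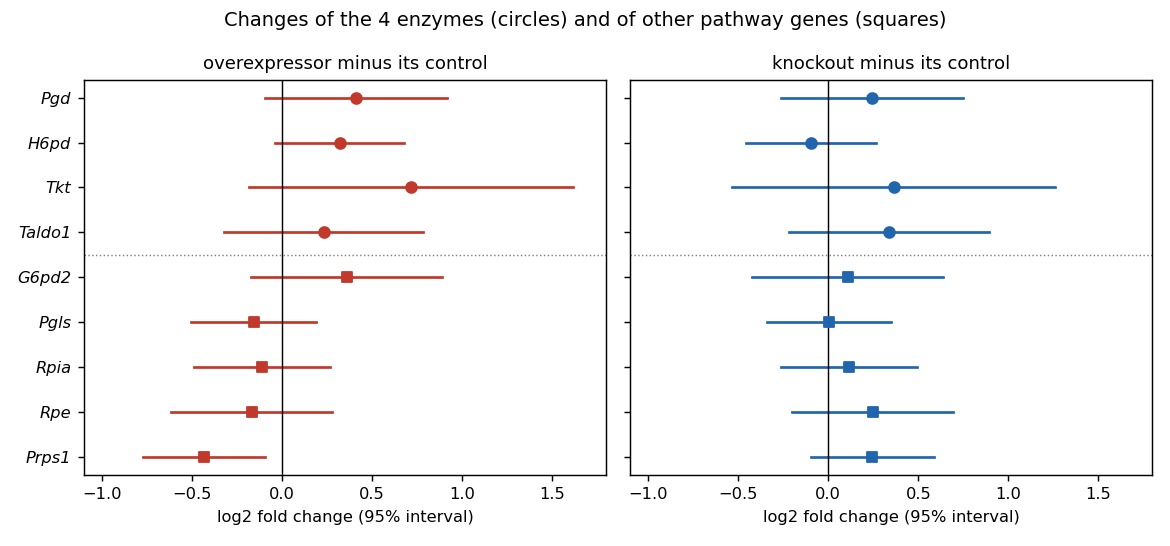
Log2 fold change with its 95% interval (horizontal axis) for the 4 enzymes (circles) and for 5 other tested genes of the pathway (squares), overexpressor on the left and knockout on the right. The intervals of all 4 enzymes include 0 in both comparisons; Tkt has the widest, from -0.18 to 1.61 in the overexpressor.

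The knockout comparison asked how these mRNAs stood in fat of the adipose-Glut4-/- mice. Pgd, Tkt and Taldo1 had a higher mean in knockouts and H6pd a slightly lower one, from -0.10 to 0.36, and 0 of 4 passed limma's test or had an unadjusted p under 0.05. Over all probe sets 9 (0.121%) were called, 297 (3.98%) had an unadjusted p under 0.05, and 63.1% had a change above 0, with a median of 0.04.

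The bright Pgd probe set read 1480, 1661 and 1451 in knockouts and 1259, 1435 and 1169 in controls. The groups did not overlap, though knockout 3 lay just above control 2, and 5.66% of tested probe sets separated these groups in that direction. The means were 1530 ± 114 and 1287 ± 135, a log2 change of 0.25 (SE 0.23, 95% interval -0.26 to 0.75, limma adjusted p = 1.00). The dim Pgd probe set did not separate them: it read 103.6, 103.8 and 64.11 against 94.82, 76.36 and 110.6, and its log2 change was -0.05 without a filter on dim probe sets.

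H6pd read 952.7, 1139 and 1309 in knockouts and 1210, 1269 and 1137 in controls. The highest and the lowest of the 6 values were both knockouts. The log2 change was -0.10 (SE 0.17, 95% interval -0.45 to 0.26, limma adjusted p = 1.00), and it was 0.019 without knockout 1, -0.20 without knockout 3 and -0.06 without knockout control 2. Hsd11b1 read 279.2, 293.4 and 270.3 in knockouts against 389.2, 387.0 and 400.2 in controls, groups that did not overlap (1.93% of probe sets in that direction), with a log2 change of -0.43 that was not called (limma adjusted p = 1.00).

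Tkt read 2503, 2291 and 2117 in knockouts and 1283, 3356 and 1300 in controls. The knockouts lay close together in the gap between the controls, of which control 2 was the highest of the 6 arrays. The means were 2304 ± 193 and 1980 ± 1192, a log2 change of 0.36 (SE 0.41, 95% interval -0.54 to 1.26, limma adjusted p = 1.00). The change was 0.81 without knockout control 2, 0.13 without knockout control 1 and 0.14 without knockout control 3.

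Taldo1 read 799.0, 971.7 and 1222 in knockouts and 664.4, 1041 and 657.2 in controls. Control 2 was once more the high control, and it lay above knockouts 1 and 2. The means were 998 ± 213 and 788 ± 220, a log2 change of 0.34 (SE 0.255, 95% interval -0.22 to 0.89, limma adjusted p = 1.00). It was 0.55 without knockout control 2 and 0.19 without knockout 3.

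Whether the 2 effects differed was tested as an interaction in the same fit. The overexpressor effect minus the knockout effect was 0.41 for H6pd (95% interval -0.09 to 0.92), 0.35 for Tkt (-0.92 to 1.62), 0.17 for Pgd (-0.55 to 0.88) and -0.11 for Taldo1 (-0.89 to 0.68), where 27.4% of all tested probe sets lay above 0. None of the 4 was called (limma adjusted p 0.893 to 0.957), and 0 had an unadjusted p under 0.05. The test called 12 of 7454 probe sets (0.161%), and 370 (4.96%) had an unadjusted p under 0.05. For Tkt these intervals run from a larger effect in the knockout to a larger one in the overexpressor, so the data do not order the 2 effects.

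**Figure D3:**
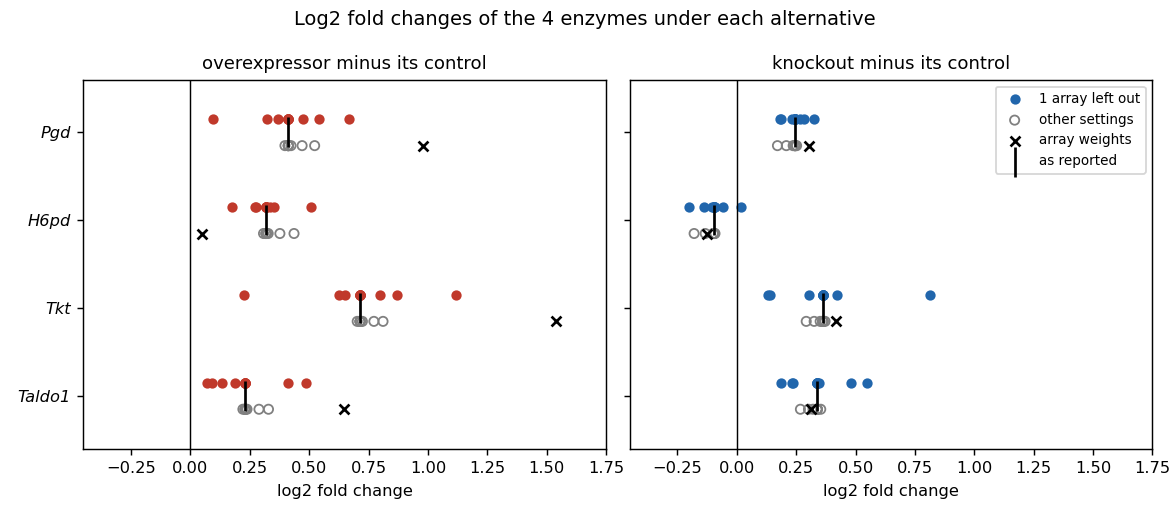
Log2 fold change of each enzyme (horizontal axis) as reported (bar), with each array left out in turn (filled points), under other processing settings (open circles) and with array weights (crosses). Tkt in the overexpressor ranges from 0.23 to 1.12 as single arrays are left out and reaches 1.54 with array weights.

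Much of the spread in these genes lay between mice of the same group, and Tkt, Pgd and Taldo1 shared it. Each array's log2 value was taken minus the mean of its own group, which removes genotype and line, and the 6 pairs of genes were correlated over 12 arrays. Tkt and Pgd had r = 0.87 (Spearman's rho 0.87), Tkt and Taldo1 r = 0.72 (rho 0.74), and Pgd and Taldo1 r = 0.68 (rho 0.80). By an exact two-sided permutation test of arrays within their groups (1296 arrangements), Benjamini-Hochberg adjusted over the 6 pairs, these 3 passed for r (raw p = 0.0077, 0.0170 and 0.0131, adjusted p = 0.0340 for each) and for rho (raw p = 0.0062, 0.0216 and 0.0139, adjusted p = 0.0370, 0.0432 and 0.0417). Without the 2 arrays farthest from the median of 1 gene of the pair, r was 0.88, 0.63 and 0.65. Those arrays were overexpressor control 2 and knockout control 2 for the pairs with Tkt. For Pgd and Taldo1 they were overexpressor 1 and knockout control 2, so overexpressor control 2 stayed in. Within the overexpressor line's 6 arrays r was 0.995, 0.75 and 0.80, and within the knockout line's 6 it was 0.76, 0.67 and 0.53. The share of other gene pairs that reach such r was not counted. The test therefore cannot tell whether Tkt, Pgd and Taldo1 vary together more than other genes read on the same arrays.

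H6pd was not shown to follow the cytosolic enzymes. Its r was -0.54 with Tkt, -0.68 with Pgd and -0.01 with Taldo1, none passing the same exact permutation test (adjusted p = 0.296, 0.296 and 0.975; raw p = 0.247, 0.208 and 0.975), and its rho was -0.36, -0.40 and 0.08 (adjusted p = 0.419, 0.419 and 0.832; raw p = 0.350, 0.343 and 0.832). The negative values lay in the overexpressor line, with r of -0.91, -0.89 and -0.48 there against 0.12, 0.22 and 0.81 in the knockout line. Without the 2 farthest arrays, r was -0.52, 0.09 and 0.60. For H6pd with Tkt these were overexpressor control 2 and knockout control 2, and for the other 2 pairs overexpressor controls 2 and 3. All genes of a pair were read on the same array, so its overall brightness enters both.

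**Figure D4:**
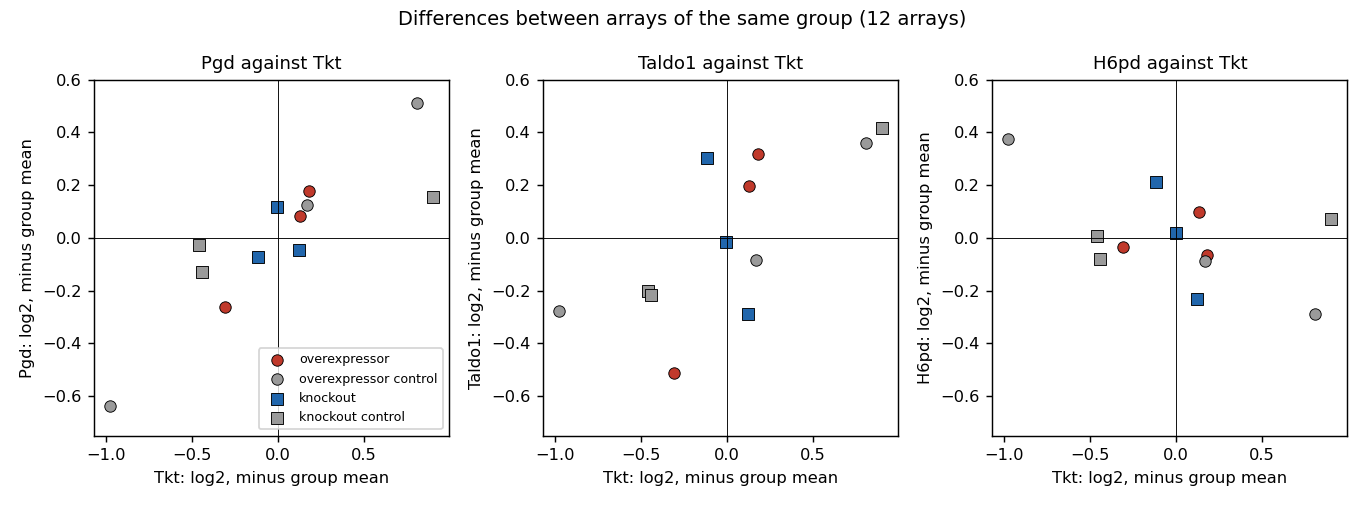
Log2 value minus the group mean for Pgd, Taldo1 and H6pd (vertical axes) against Tkt (horizontal axis), 1 point per array, circles for the overexpressor line and squares for the knockout line, controls in grey. Pgd and Taldo1 climb with Tkt (r = 0.87 and 0.72 over 12 arrays), H6pd does not (r = -0.54), and the grey control points reach farthest along the Tkt axis.

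The genes whose signal was most like each enzyme were sought among 6669 tested probe sets by Pearson's r of log2 values, each centred on the mean of its line's 6 arrays, over 12 arrays. For Tkt they were Acly, which makes cytosolic acetyl-CoA (r = 0.96), Me1, the cytosolic malic enzyme that also yields NADPH (0.94), and Fasn, the fatty acid synthase (0.93). All 3 belong to fatty acid synthesis or its supply. Without the 2 arrays farthest from Tkt's median, r was 0.89, 0.84 and 0.87.

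The array values show the likeness directly. Acly read 4090, 4880 and 5096 in overexpressors and 3918, 1528 and 4892 in their controls, with control 2 low as for Tkt. In the knockout line Acly read 2630, 2239 and 1644 in knockouts and 1144, 2413 and 1213 in controls, with control 2 high as for Tkt. Me1 read 2094, 725.8 and 2932 in the overexpressor controls and 646.2, 1557 and 617.8 in the knockout controls. Control 2 was the low array of the first group and the high array of the second, as for Tkt.

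For Taldo1 the nearest were G6pc3, a ubiquitous glucose-6-phosphatase (r = 0.97), Pfkl, the liver-type phosphofructokinase of glycolysis (0.96), and Srebf1, the sterol regulatory element binding protein that activates lipogenic genes (0.96). Without the 2 arrays farthest from the median of Taldo1, r was 0.96 for each. For Pgd they were a probe set of Rb1, the retinoblastoma gene, Fabp5, a fatty acid binding protein, and Phlda3, a repressor of Akt signalling (0.92 each; 0.84, 0.92 and 0.94 without the 2 farthest arrays). For H6pd they were Ivns1abp (0.88), Tmem134 (0.86) and Iigp1, an interferon-induced GTPase (0.82), with r of 0.86, 0.76 and 0.64 without the 2 farthest arrays. These correlations are a description, chosen as the highest of many.

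**Figure D5:**
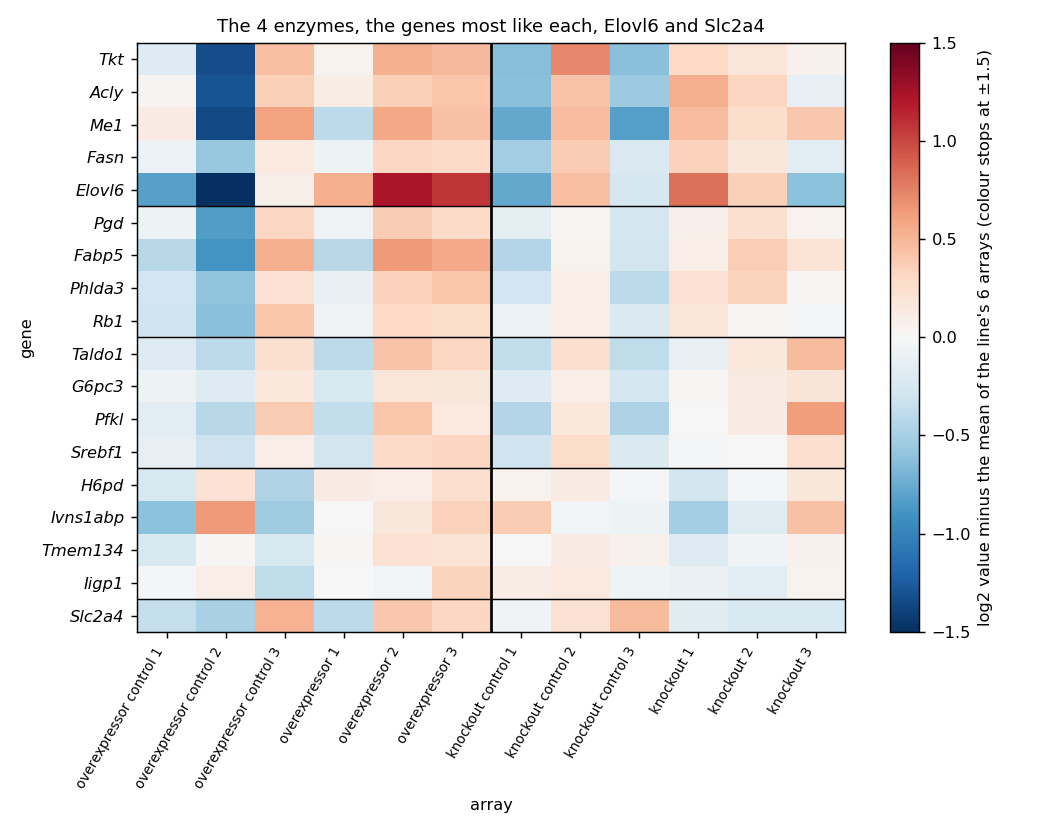
Log2 value minus the mean of the line's 6 arrays (colour) for the 4 enzymes, the genes most like each, Elovl6 and Slc2a4 (rows) on 12 arrays (columns, overexpressor line left of the thick line). Overexpressor control 2 is low and knockout control 2 high in the Tkt block, while H6pd and its block run differently.

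The remaining genes of the pathway came from a list of 12, of which 8 were named by a probe set and 5 were bright enough to test. None was called in either comparison. In the overexpressor 1 of 5 was higher and 4 were lower (median -0.16, range -0.43 to 0.36), where the 4 enzymes had a median of 0.37 and all probe sets one of -0.07. In the knockout 5 of 5 were higher (median 0.12, range 0.002 to 0.25), where the 4 enzymes had a median of 0.29 and all probe sets one of 0.04.

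G6pd2, a retrotransposed copy of the glucose-6-phosphate dehydrogenase gene, read 275.5, 540.8 and 473.2 in overexpressors and 232.2, 369.1 and 361.9 in controls (log2 change 0.36, limma adjusted p = 0.916). The groups overlapped through overexpressor 1. Its probes may also read the parent gene G6pdx, which was not analysed here. The log2 change of Pgls, the lactonase of the oxidative branch, was -0.16 in the overexpressor and 0.002 in the knockout. It was -0.11 and 0.12 for Rpia, the ribose-5-phosphate isomerase, and -0.17 and 0.25 for Rpe, the ribulose-5-phosphate epimerase.

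Prps1, which turns ribose-5-phosphate into the precursor of nucleotides, was the 1 gene of this list with an unadjusted p under 0.05. It read 475.7, 571.9 and 561.6 in overexpressors against 621.6, 884.5 and 720.7 in controls. All 3 overexpressors lay below all 3 controls, as 6.51% of tested probe sets did. The log2 change was -0.43 (95% interval -0.77 to -0.09, limma adjusted p = 0.888), and in the knockout it was 0.25. Rbks, the ribokinase, Prps2 and Tktl1 fell under the brightness limit.

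Other enzymes that supply NADPH did not pass either. Of 9 listed genes 6 were tested; 2 were higher and 4 lower in the overexpressor (median -0.08), and 4 higher and 2 lower in the knockout (median 0.21). The log2 changes of Me1 were 0.42 and 0.75, with 95% intervals of -0.57 to 1.41 and -0.24 to 1.74. Those of Idh2, the mitochondrial isocitrate dehydrogenase, were -0.34 and 0.40, and those of Idh1, its cytosolic counterpart, -0.26 and 0.22. All overexpressors lay below all their controls for Idh1, as for 6.51% of tested probe sets. In the knockout the groups lay apart for Idh2 (higher, as for 5.66%) and Nadk (lower, as for 1.93%). The difference between the 2 effects was -0.75 for Idh2 (unadjusted p = 0.0199, limma adjusted p = 0.864), which was not called.

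Of 14 listed genes of NADPH-consuming enzymes and pathways 6 were tested. Hsd11b1 was the 1 gene called in the overexpressor, where 0.0805% of all tested probe sets were called. It was also the 1 gene called in the difference between the effects (2.15, limma adjusted p = 0.0314), where 0.161% of probe sets were called. None of the 6 was called in the knockout. The list was chosen with earlier results of these data known. Elovl6, the condensing enzyme of a fatty acid elongation cycle whose reductase steps use NADPH, read 2075, 3342 and 3021 in overexpressors against 789.5, 295.9 and 1508 in controls. The groups lay apart, as for 2.29% of tested probe sets in that direction, and control 2 was the lowest, as it was for Tkt and Pgd. Its log2 change was 1.89 (limma adjusted p = 0.509), not called. The dimmer Elovl6 probe set, whose groups also lay apart, changed by 2.15 (limma adjusted p = 0.509). With array weights, whose iteration did not converge, both were called (2.91 and 3.54, limma adjusted p = 0.00118 and 0.00153). Fasn was called with those weights too (0.73, limma adjusted p = 0.0284). The log2 change of Fasn was 0.35 in the overexpressor (0.15 without overexpressor control 2) and 0.23 in the knockout (0.032 without knockout control 1, 0.48 without knockout control 2). That of Gsr, the glutathione reductase, was 0.02 and -0.02, and that of Sqle, the squalene epoxidase, -0.32 and 0.11. For Sqle all 3 overexpressors lay below all 3 controls, as for 6.51% of tested probe sets (limma unadjusted p = 0.0444, adjusted p = 0.916).

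Of 8 listed regulators 4 were tested and none was called. The log2 change of Srebf1 was 0.23 in the overexpressor and 0.16 in the knockout. It was -0.23 and -0.05 for Nfe2l2, encoding the antioxidant factor NRF2, -0.14 and 0.002 for Mlx, the partner of the glucose-sensing factor ChREBP, and -0.27 and -0.19 for Bach1.

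Markers of several other cell types had lower values in the overexpressor, where 29.7% of all tested probe sets had a change above 0. Of fibroblast markers 6 of 6 were lower (median -0.48), with a summed intensity of 15522 to 18782 against 17844 to 25938 in controls. Macrophage markers were lower in 6 of 6 tested (median -0.30; 3484 to 3833 against 3153 to 6609) and smooth muscle markers in 4 of 4 (median -0.45; 6304 to 6732 against 6218 to 10929). Endothelial markers were lower in 5 of 5 (median -0.29, sums of 1741 to 2601 against 2267 to 2797). Mesothelial markers were lower in 4 of 4 (median -0.30, sums of 2272 to 2715 against 2262 to 4862). In the knockout, smooth muscle markers were lower in 4 of 4 (median -0.35; 7865 to 9715 against 9201 to 12923) and fibroblast markers in 5 of 6 (median -0.15). Adipocyte markers were higher in the knockout in 5 of 5 (median 0.09), where 63.1% of all tested probe sets had a change above 0. Their summed intensity of 17646 to 19876 did not overlap the 16762 to 17517 of the controls. The groups lay apart in 0 of the 5 markers taken singly, and in that direction for 5.66% of tested probe sets. Lep (0.50) and Cidec (0.25) changed most, and Lipe (0.09), Adipoq (0.06) and Fabp4 (0.03) least. In the overexpressor 2 of 5 adipocyte markers were higher and 3 lower (14342 to 18861 against 16651 to 19310). Cidec had the largest change, -0.77 (limma adjusted p = 0.304). All 3 overexpressors lay below all 3 controls for it, as for 6.51% of tested probe sets. The changes of Adipoq, Fabp4, Lep and Lipe there ran from -0.06 to 0.06. Epithelial markers summed to 747 to 786 in overexpressors and 834 to 994 in their controls, with 2 of 2 tested lower, and lymphocyte markers to 1009 to 1399 and 1391 to 1575, with 2 of 3 lower. Red blood cell markers were higher in 2 of 2 (median 0.23; 7819 to 8465 against 7041 to 8308), ovary markers were higher in 2 of 3 (median 0.01), and skeletal muscle markers lower in 3 of 4 (median -0.12). No marker of any of these lists was called. The part of these markers in the enzyme values was not tested.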

How the data were processed

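Per the labels' protocols, total RNA of perigonadal fat was extracted with an RNeasy kit, labelled with biotin and hybridised to Affymetrix arrays at a core facility. The deposited values are linear intensities per probe set; the software and scaling behind them: not given in the sources used here. Titles set the groups, because controls carry their mutants' value in the genotype field.

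Intensities were transformed as log2(intensity + 36.92), the 10th percentile of the table, and the 4968 (40%) dimmest of 12422 probe sets by mean over 12 arrays were left out. Array medians spanned 0.20 on this scale, under a limit of 0.5, so no normalization was added. limma 3.58.1 (R 4.3.3) fitted the 4 group means with trended eBayes, on 8 residual degrees of freedom plus 4.32 from the prior; the script was tested on simulated data. Permuting 3 against 3 exactly gives a two-sided p of 0.1 at the least, so no single gene was tested that way. A gene with several probe sets is given by the brightest in lists.

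In the platform annotation 10833 probe sets had 1 symbol, 396 had more and 1193 had no symbol; 10817 of the first kind matched RefSeq by gene ID. Promoter sequences are RefSeq's (GRCm38.p6), and all 4 genes matched. The 4 genes and the gene lists were chosen with earlier results of these data known. Named genes were the 4 enzymes, fixed lists of pathway genes, NADPH sources, users and regulators, Slc2a4, and the 3 genes most like each enzyme. Alternatives covered the added constant, dim filter, normalization, weights, trend, the arrays fitted and each array left out. Figures used matplotlib 3.10.9.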

Additional observations from a re-analysis of the deposited data

Results flagged for a closer look

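The Hsd11b1 effect differed between the lines by an interaction test: the overexpressor effect minus the knockout effect was 2.15 on the log2 scale (95% interval 1.38 to 2.91, limma adjusted p = 0.0314), higher in 3 of 3 overexpressors and lower in 3 of 3 knockouts than in every control of their line. That call was lost when dim probe sets were kept (adjusted p = 0.167), with the replicate number as a block (0.0770) and in 9 of 12 fits that left out 1 array (adjusted p up to 0.122). None of the 4 pentose phosphate enzymes differed between the lines by that test.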

How the results depend on the processing

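Under 22 alternatives (21 for the difference between effects), 0 of the 4 enzymes were called in the knockout and in the difference, and 0 in the overexpressor except with array weights, where 3 were called. Same-numbered mice of a line correlated at -0.36 to 0.02 in their deviations from group means, which gave no sign that the numbers pair them. Deviations from means of 3 arrays cannot show that pairing was absent. With the replicate number as a block 0 of 4 were called in each comparison, and the calls over all probe sets went from 6 to 5 in the overexpressor, from 9 to 0 in the knockout and from 12 to 1 in the difference. In the overexpressor comparison 11 probe sets were called with array medians subtracted, 12 with quantile normalization, 1 on the line's own 6 arrays and 411 with array weights; in the knockout 15 with array weights; in the difference 1 without a filter and 44 with array weights. With single arrays left out these counts ran from 3 (without overexpressor control 2) to 21 (without overexpressor control 3), 6 to 11, and 1 (without overexpressor 3, or without knockout 3) to 13. The difference between effects ranged, with single arrays left out, from -0.14 to 0.76 for Tkt, -0.15 to 0.42 for Pgd, 0.27 (without overexpressor control 3) to 0.60 for H6pd, -0.32 to 0.15 for Taldo1 and -0.13 to 0.31 for Fasn, and the H6pd change in the knockout from -0.20 to 0.019. The Taldo1 difference was also 0.061 with quantile normalization and 0.33 with array weights, and that of H6pd 0.17 with array weights. The cause of these moves was not tested. An array gives no read depth, and 3 arrays a group limit what could be called.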
